A study of Rattus norvegicus with 14 samples.

Results

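Obp3 and Car3 are 2 genes whose liver transcripts were followed here across male rats fed with or without vitamin A. All probe sets of the array whose annotated gene symbol is, or includes, Obp3 or Car3 were taken, which gave 6 of the 8740 probe sets that are not controls. AF037072_at is annotated to Car3 alone, and J00738_s_at and X14552_at to Obp3 alone. M27434_s_at is shared by Obp3, Mup4l1 and Mup4l4, M24109mRNA_at by Obp3 and Mup5, and M24108mRNA_at by Obp3 and 6 Mup genes. Both genes were chosen by their measured intensity difference between the diets on these same arrays, so every diet difference of the 6 probe sets is given as a description, with no test.

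The deficient livers came from male rats on a vitamin A-deficient diet and the sufficient livers from male rats on a vitamin A-sufficient diet. Both sets of rats were 74 days old and had been fed their diet for 53 days. The labels name no strain. Affymetrix single-channel arrays were hybridised with targets made from about 2 µg of total RNA (3 arrays per diet, numbered 1, 2 and 4) or about 10 µg (4 arrays per diet, numbered 1 to 4), 14 arrays in all. Arrays of the same diet and number are called a liver here, although the labels do not say that they share one, so each diet has 4 livers and liver 3 of each diet rests on its 10 µg array alone. Intensities are on the authors' linear scale, on which the trimmed mean of an array lay between 1001.9 and 1002.1. Levels are log2 of the rescaled intensity plus 16, given as mean ± SD over livers.

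Obp3 belongs to the alpha-2u globulins, small secreted lipocalins that carry hydrophobic ligands in a barrel-shaped pocket. In rats the liver of the adult male makes them in large amount, and they pass into the urine, where they bind pheromones. Their synthesis in rat liver is known to depend on androgen, growth hormone, glucocorticoid and thyroid hormone. Car3 is a cytosolic carbonic anhydrase with low catalytic activity, abundant in skeletal muscle, in fat and in the liver of male rats, where its level follows the male pattern of growth hormone secretion.

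Obp3 lies in a cluster of closely related genes. In the GRCr8 RefSeq table it is followed along chromosome 5 by Mup4l4, Mup4, Mup18, Mup5, Mup4l1 and Mup4l3, with pseudogenes among them. The promoters of the 3 genes that share the brightest probe set are shown because they show how alike these 3 are there. The letters are RefSeq's, from GRCr8, all on the minus strand, 250 bases up to the annotated start, at chr5:79640676-79640925 for Obp3, chr5:80226535-80226784 for Mup4l1 and chr5:79707808-79708057 for Mup4l4. Capitals mark matches to the motifs named after them.
Obp3: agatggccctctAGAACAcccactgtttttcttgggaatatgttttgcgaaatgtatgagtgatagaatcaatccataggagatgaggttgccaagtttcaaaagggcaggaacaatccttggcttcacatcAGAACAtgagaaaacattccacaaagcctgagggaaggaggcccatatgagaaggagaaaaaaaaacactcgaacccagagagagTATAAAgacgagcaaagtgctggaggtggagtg
Mup4l1: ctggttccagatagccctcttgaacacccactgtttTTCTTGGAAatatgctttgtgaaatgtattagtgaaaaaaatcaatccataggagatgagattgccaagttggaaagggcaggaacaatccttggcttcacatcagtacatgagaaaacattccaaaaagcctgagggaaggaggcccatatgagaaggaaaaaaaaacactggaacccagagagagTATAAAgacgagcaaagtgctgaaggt
Mup4l4: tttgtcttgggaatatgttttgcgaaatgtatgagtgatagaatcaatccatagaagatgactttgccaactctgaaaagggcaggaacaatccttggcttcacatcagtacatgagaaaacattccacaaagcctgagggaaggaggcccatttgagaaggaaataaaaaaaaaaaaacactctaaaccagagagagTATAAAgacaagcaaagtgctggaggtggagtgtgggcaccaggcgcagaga
Aligned over windows of 300 bases that run 50 bases past the start, the Obp3 promoter was identical to that of Mup4l1 at 274 of 291 aligned bases (94.2%) and to that of Mup4l4 at 257 of 275 (93.5%). Its identity was 97.5% to Mup5, 97.2% to Mup4 and 93.9% to Mup4l3, whereas only 4 bases aligned with the Mup18 window. The TATA box TATAAA stood in all 3, and 14.2% of 33469 rat promoter windows held it on either strand. Obp3 also held the steroid receptor hexamer TGTTCT 2 times on the reverse strand, where it reads AGAACA, beginning at bases 13 and 133 of the window. The windows of Mup4l1 and Mup4l4 held no match to TGTTCT, a motif found in 20.7% of all windows. The TATA box began at base 218 of the Obp3 window and base 199 of the Mup4l4 window. The Mup4l4 window thus starts past the stretch of the first Obp3 match, and that site could not be compared there. Mup4l1 held 1 match to the STAT5 motif TTCNNNGAA (8.87% of windows). The nuclear receptor hexamer AGGTCA (16.2% of windows) matched none of the 3, nor did its direct repeat, the retinoic acid receptor type of element, which 3 windows in all held. Both strands were searched and no matches overlapped. Car3 had no entry in the promoter table.

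Obp3 transcript, as read by J00738_s_at, was far lower in every deficient liver. On the 2 µg arrays its intensity was 293.4, 298 and 113.1 in deficient livers 1, 2 and 4, against 8930.8, 14035.7 and 14012.5 in sufficient livers 1, 2 and 4. On the 10 µg arrays it was 260.4, 321.2, 903.2 and 83.4 in deficient livers 1 to 4, against 8689.8, 14376.6, 8029.6 and 13742.6 in sufficient livers 1 to 4. The highest deficient array lay well under the lowest sufficient array, and the diets did not overlap. The level was 7.38 ± 1.18 in deficient livers and 12.40 ± 0.42 in sufficient livers (n = 4 each), a log2 difference of -5.02 (SE 0.63), or 32.5-fold lower. The gap between the highest deficient and the lowest sufficient liver was 3.11 on the log2 scale, larger than the whole range of 2.89 among the deficient livers.

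The dimmer Obp3 probe set, X14552_at, was lower in deficient livers too. On the 2 µg arrays it read 113.4, 124.3 and 79.8 in deficient livers 1, 2 and 4, against 285.4, 539.2 and 505.5 in the sufficient livers of those numbers. On the 10 µg arrays it read 16.2, 68.9, 106.9 and 24.5 in deficient livers 1 to 4, against 367.2, 518.8, 320.2 and 419.1 in sufficient livers 1 to 4. The diets again did not overlap. The level was 5.51 ± 0.51 in deficient livers and 7.56 ± 0.28 in sufficient livers, a log2 difference of -2.06 (SE 0.29), or 4.16-fold lower. The deficient mean lay under the level of 6.196 that a probe set needed to be tested, so X14552_at passed that filter only through its sufficient level. The size of its difference depended on the constant added before the logarithm, at -2.55 with a constant of 1 and -1.38 with 64.

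The probe set that Obp3 shares with Mup4l1 and Mup4l4, M27434_s_at, gave a much smaller difference. On the 2 µg arrays its intensity was 47036.5, 65852.3 and 29597.2 in deficient livers 1, 2 and 4, against 75502.2, 85958.6 and 75400.1 in the sufficient livers of those numbers. On the 10 µg arrays it was 46026.2, 59206.3, 61086.1 and 33537.3 in deficient livers 1 to 4, against 70000.4, 82876.7, 66346.4 and 79012.8 in sufficient livers 1 to 4. No deficient array reached the lowest sufficient one, but the brightest deficient array, liver 2 at 2 µg, came close to it, and the gap between the diets was 0.09 on the log2 scale of liver levels. The level was 14.58 ± 0.46 in deficient livers and 15.20 ± 0.14 in sufficient livers, a log2 difference of -0.62 (SE 0.24), or 1.54-fold lower. The readings stood in the upper part of the scale, since the brightest probe set of an array read between 86256.6 and 123625.7. Whether intensity still rose in proportion to RNA there was not tested.

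The other shared probe sets carried little signal. M24108mRNA_at ranged from 6.1 to 67 over the 7 deficient arrays (median 18.8) and from 5.9 to 78.1 over the 7 sufficient arrays (median 20.2). M24109mRNA_at ranged from 13.5 to 64.3 in deficient (median 22.8) and from 13.4 to 119.6 in sufficient arrays (median 25.2). The diets overlapped in both, at log2 differences of -0.12 (SE 0.23) and -0.03 (SE 0.28). Neither passed the filter on dim probe sets, which left 4 of the 6 probe sets tested.

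**Figure D1:**
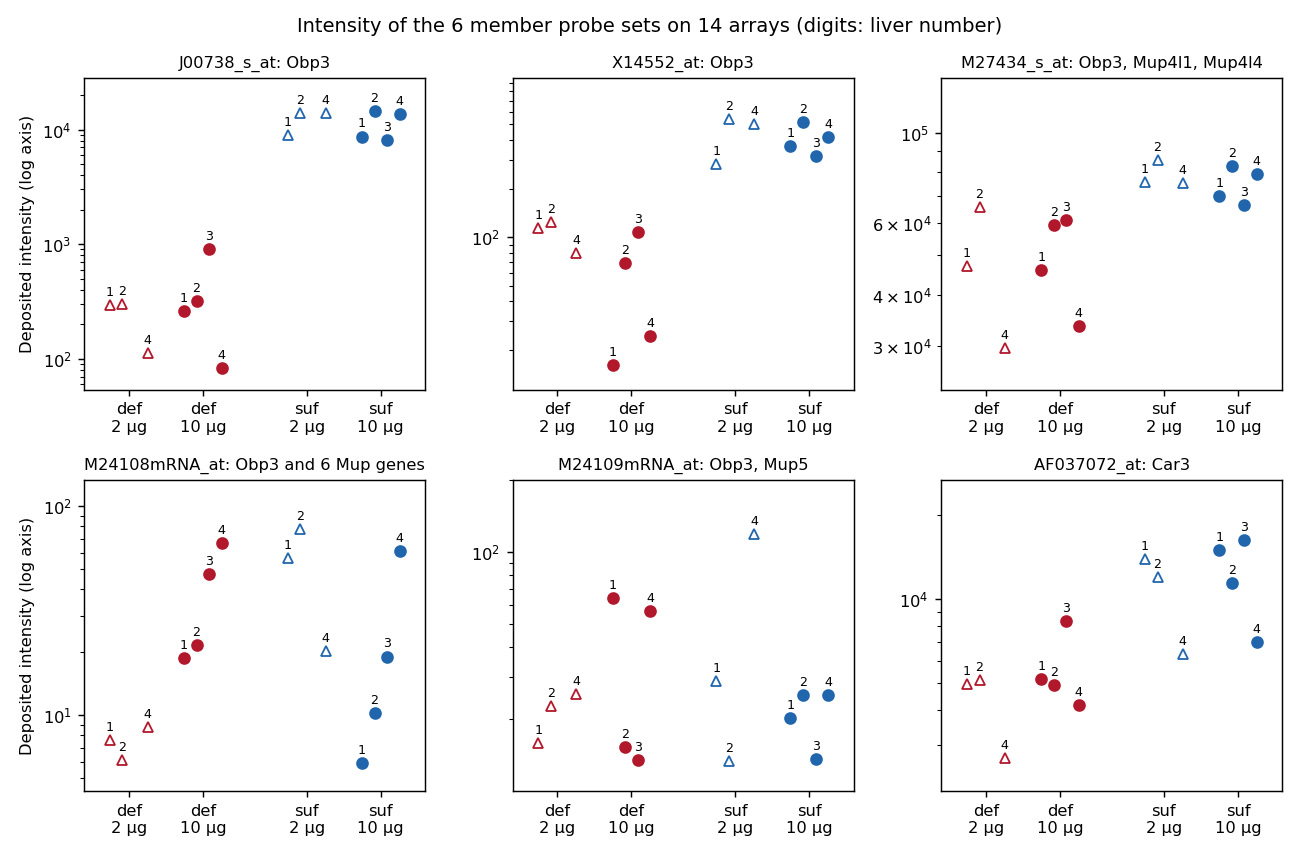
Deposited intensity (log axis) of each of the 6 probe sets on the 14 arrays, by diet (def, deficient, red; suf, sufficient, blue) and RNA amount (open triangles, 2 µg; filled circles, 10 µg), with the liver number above each point. The diets stand apart for J00738_s_at and X14552_at, nearly touch for M27434_s_at, and overlap for AF037072_at, M24108mRNA_at and M24109mRNA_at.

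Car3 was lower in deficient livers on average, with overlap between the diets. On the 2 µg arrays AF037072_at read 4979.6, 5107.6 and 2688.8 in deficient livers 1, 2 and 4, against 13838.3, 11988.3 and 6364.8 in the sufficient livers of those numbers. On the 10 µg arrays it read 5184.7, 4906.5, 8345.5 and 4174.3 in deficient livers 1 to 4, against 14935, 11383, 16215.4 and 7028.9 in sufficient livers 1 to 4. Deficient liver 3 lay above sufficient liver 4, and the other deficient livers lay below all sufficient ones. The level was 11.41 ± 0.51 in deficient livers and 12.57 ± 0.55 in sufficient livers, a log2 difference of -1.16 (SE 0.37), or 2.24-fold lower. Over liver levels, 3 of the 4 tested probe sets of Obp3 and Car3 had every deficient liver below every sufficient one, Car3 being the exception, beside 161 of all 5244 tested probe sets (3.07%), while 467 had diets that did not overlap in either direction (8.91%). The difference was -1 or lower for 3 of the 4, J00738_s_at, X14552_at and Car3, beside 60 of the 5244 (1.14%). These shares are background only, since the diet contrast chose the genes. The median difference over all 5244 was 0.04.

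Skeletal muscle makes Car3 as well, and muscle transcripts varied between livers. Acta1, the actin of skeletal muscle, read 1081.8 and 1073.7 in deficient liver 1 (2 µg and 10 µg arrays) and 6.1 to 63.3 on the other deficient arrays, against 1600.6 in sufficient liver 3 and 7.4 to 91.4 on the other sufficient arrays. Ckm, the muscle creatine kinase, was high in the same livers, at 429.8 and 381.3 in deficient liver 1 and 506.7 in sufficient liver 3. The summed intensity of the 9 muscle markers on the array ranged from 1252.3 to 3297.2 in deficient arrays and from 1330 to 4712 in sufficient arrays. These sums overlapped between the diets, but 8 of the 9 markers had a lower mean in deficient livers. Myh1, a myosin heavy chain, did not overlap, with liver levels of 8.30, 8.36, 8.56 and 8.48 in deficient livers 1 to 4, against 10.07, 8.90, 8.87 and 8.93 in sufficient livers 1 to 4. Of the 9, 3 passed the filter on dim probe sets (Ckm, Myh1 and Myl1) and 0 passed the limma test by diet at an adjusted p of 0.05 (unadjusted p under 0.05 for 1, Myh1, at -0.77 with SE 0.24 and limma adjusted p = 0.162). Car3 was highest among sufficient livers in liver 3, where Acta1 was high. Among deficient livers Car3 was highest in liver 3, where the muscle markers went different ways. Acta1, Ckm, Tnni2 and Atp2a1 were at their lowest deficient level there, and Myh1 (8.56) and Myh4 (6.08) at their highest. Without sufficient liver 3 alone the Car3 difference was -1.02, against -1.16 with all livers. With deficient liver 1 left out as well, a pair chosen by Acta1 after seeing the data, it was again -1.02. Sufficient liver 1, with the highest Myh1 level at 10.07, stayed in. Myh1 did not overlap between the remaining livers either, and the part of muscle tissue in the Car3 readings was not tested. Fat markers gave summed intensities of 2766.8 to 3428.8 in deficient and 2413.3 to 3789.3 in sufficient arrays. Fabp4 and Plin1 were under the filter level in both diets, and Cfd, Lep, Lpl and Lipe were above it in both. The part of fat tissue in the Car3 readings was not tested.

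**Figure D2:**
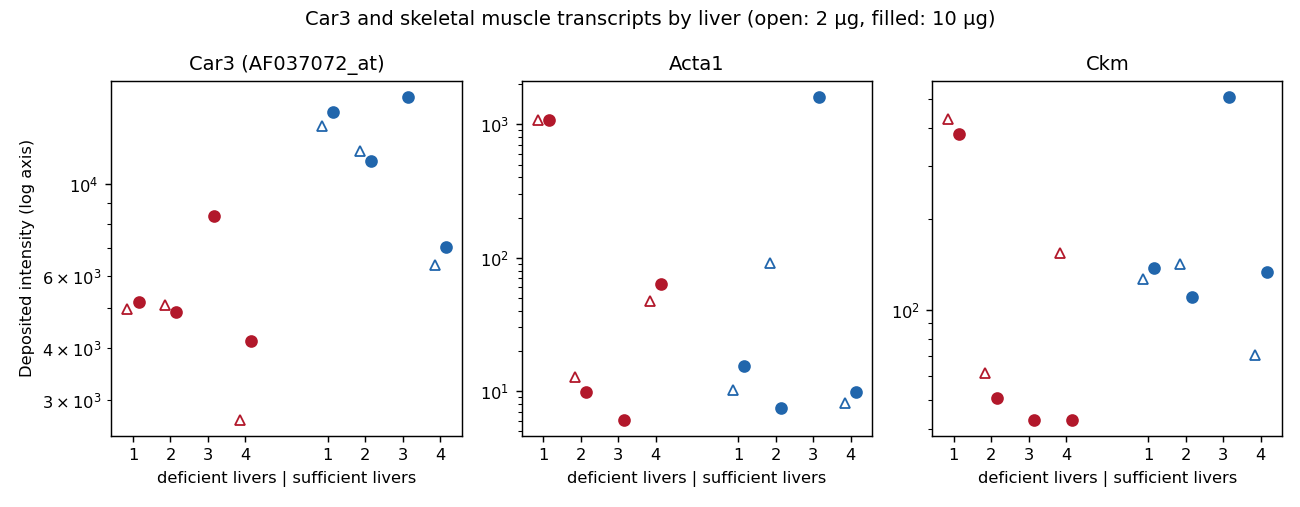
Deposited intensity (log axis) of Car3, Acta1 and Ckm by liver, deficient (red) and sufficient (blue), at 2 µg (open triangles) and 10 µg (filled circles). Acta1 stands far above its other readings in deficient liver 1 (1081.8 and 1073.7) and sufficient liver 3 (1600.6). Car3 is highest in liver 3 of each diet.

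The spread among livers was unlike between the probe sets. For J00738_s_at the liver levels spanned 7.41-fold in deficient and 1.73-fold in sufficient livers. Its SD of 1.18 among deficient livers was exceeded by 0.172% of the 5244 tested probe sets, whose median SD was 0.22 in each diet. For Car3 the span was 2.36-fold in deficient and 2.30-fold in sufficient livers, so its spread was about as wide in both diets. For M27434_s_at the span was 1.98-fold in deficient and 1.27-fold in sufficient livers. Its SD of 0.14 among sufficient livers was exceeded by 77.0% of tested probe sets. These are the readings near the top of the scale, where proportion to RNA was not tested.

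Among deficient livers, Obp3 and Car3 deviated in the same livers. Liver 3 stood above the deficient mean by 1.503 for J00738_s_at, 0.62 for X14552_at, 0.33 for M27434_s_at and 0.64 for Car3 (log2 deviations). Liver 4 stood below it, at -1.39 for J00738_s_at, -0.45 for X14552_at, -0.63 for M27434_s_at and -0.60 for Car3. By J00738_s_at and Car3, liver 3 was the highest and liver 4 the lowest deficient liver, and by M27434_s_at liver 4 was the lowest and liver 2, at 0.36, the highest. For X14552_at the deficient readings lay under the filter level, and liver 4, at 5.05, was not clearly apart from liver 1, at 5.13. The J00738_s_at level of liver 4, 5.99, lay under the filter level too. The low readings of liver 4 for J00738_s_at, M27434_s_at and Car3 came back on its 2 µg array, where each was again the lowest of the 3 deficient arrays, whereas liver 3 has no array at that amount.

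Among sufficient livers the order was another one. By J00738_s_at, livers 2 and 4 stood above the mean, at 0.38 and 0.34, and livers 1 and 3 below it, at -0.31 and -0.41. Car3 was above its mean in livers 1 and 3, at 0.32 and 0.43, close to it in liver 2, at 0.03, and below it in liver 4, at -0.78. The sufficient liver with the lowest Car3 was thus among the 2 with the most Obp3 by J00738_s_at. With 4 livers per diet no correlation is given. The ratio of 3' to 5' signal for GAPDH, a measure of RNA quality, was 1.71 to 2.01 in deficient liver 4. It was 1.44 to 2.18 over all deficient arrays, liver 4 included, and 1.48 to 1.98 over the sufficient arrays.

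**Figure D3:**
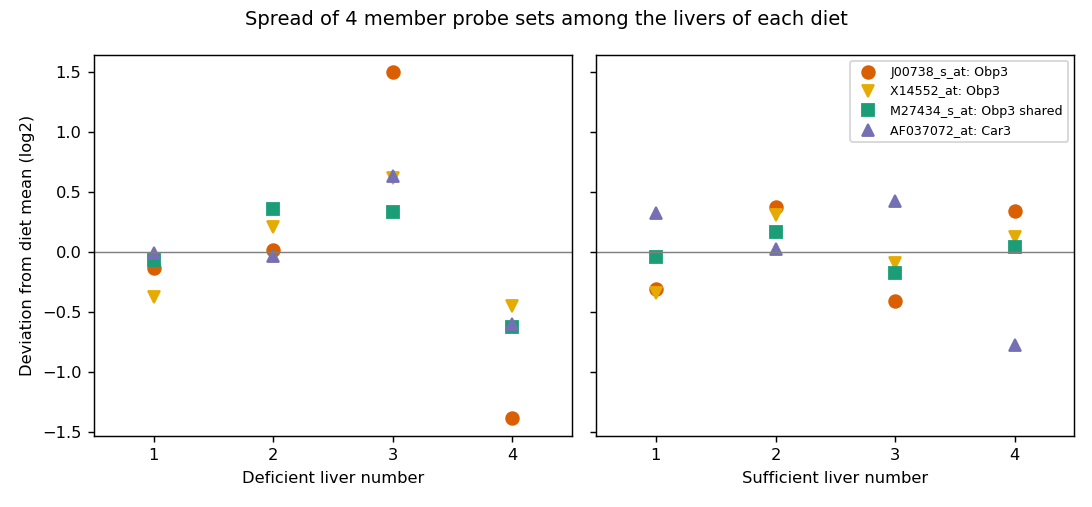
Deviation of each liver from the mean of its diet, on the log2 scale, for 4 probe sets, deficient livers on the left and sufficient livers on the right. Deficient liver 4 is below the mean by every probe set (-1.39 to -0.45), and in sufficient livers 3 and 4 the Car3 and J00738_s_at points lie on opposite sides of the mean.

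How far the RNA amount moved these readings could be tested, since the amount played no part in choosing the genes. For J00738_s_at the intensity at 2 µg over that at 10 µg was 1.13, 0.928 and 1.36 in deficient livers 1, 2 and 4, and 1.03, 0.976 and 1.02 in sufficient livers 1, 2 and 4. The amounts differed little where Obp3 was abundant. For X14552_at the ratio was 7, 1.80 and 3.26 in the deficient livers and 0.777, 1.04 and 1.21 in the sufficient livers, so its dim deficient readings differed most between the amounts. For M27434_s_at the 6 ratios lay between 0.883 and 1.11, and for Car3 between 0.644, in deficient liver 4, and 1.05.

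In limma over all 14 arrays, 0 of 5244 probe sets passed for the RNA amount at an adjusted p of 0.05 (0%), and 347 had an unadjusted p under 0.05 (6.62%). The log2 difference, 2 µg minus 10 µg, was -0.11 for J00738_s_at (SE 0.35, limma adjusted p = 0.983), 0.44 for X14552_at (SE 0.25, limma adjusted p = 0.824), -0.01 for M27434_s_at (SE 0.16, limma adjusted p = 0.998) and -0.31 for Car3 (SE 0.23, limma adjusted p = 0.867). Paired by liver, as a replicate block, 2 probe sets passed, neither of them Obp3 or Car3, and the differences were 0.07, 0.53, 0.02 and -0.13 in the same order, at limma adjusted p of 0.779, 0.421, 0.929 and 0.584. The interaction asks whether the diet difference changed with the amount. It passed for 0 of 5244 probe sets in limma (0%; unadjusted p under 0.05 for 96, 1.83%). Its estimate was 0.71 for X14552_at (SE 0.49), -0.53 for J00738_s_at (SE 0.71), -0.19 for M27434_s_at (SE 0.32) and -0.20 for Car3 (SE 0.47). The J00738_s_at estimate rested on deficient liver 3, which has no 2 µg array, being -0.03 without it and 0.12 with the replicate block. With that block the estimate was 1.08 for X14552_at, -0.03 for M27434_s_at and -0.15 for Car3, and none passed. By amount, and so over livers 1, 2 and 4 at 2 µg and livers 1 to 4 at 10 µg, the diet difference was -5.60 at 2 µg and -5.07 at 10 µg for J00738_s_at, -1.76 and -2.46 for X14552_at, -0.80 and -0.61 for M27434_s_at, and -1.31 and -1.11 for Car3.

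The other members of both gene families were set beside Obp3 and Car3. Of 6 other lipocalins tested, 0 passed by diet in limma and 1 had an unadjusted p under 0.05, beside 90 of all 5244 probe sets that passed (1.72%) and 758 with an unadjusted p under 0.05 (14.5%). Whether these genes differed from Obp3 or Car3 in their response was not tested, and the Mup genes nearest to Obp3 were read only through the shared probe sets. All 6 differences were positive, from 0.06 to 0.86, with a median of 0.17. Lcn2, a lipocalin that binds bacterial siderophores, was at 0.86 (SE 0.38, limma adjusted p = 0.326), and Rbp4, the lipocalin that carries retinol in plasma, at 0.13 (SE 0.08, limma adjusted p = 0.503). Orm1, an acute phase glycoprotein, was at 0.16 and Apom, which travels on lipoproteins, at 0.17. Obp1f, Apod and Ptgds were too dim to be tested.

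Of 3 other carbonic anhydrases tested, 0 passed in limma and 1 had an unadjusted p under 0.05, beside the 14.5% of all probe sets. Car2, the fast cytosolic isoform, was at -0.54 (SE 0.20, limma adjusted p = 0.255), with its dimmer, untested probe set at -0.58. The others were Car4, anchored to membranes, at 0.01 (SE 0.22) and Car5a, the mitochondrial isoform of liver, at 0.64 (SE 0.33, limma adjusted p = 0.423). Car5b and Car6 were too dim to be tested.

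Among 9 other genes tested that are higher in male than in female rat liver, 2 fell, 0 rose and 7 did not pass, where 52 of all 5244 probe sets fell (0.992%) and 38 rose (0.725%). The genes that fell were the P450 Cyp2c13, at 11.28 against 13.40 in deficient and sufficient livers (log2 difference -2.12, SE 0.16, limma adjusted p = 4.15e-05), and the sulfotransferase Sult1c3, at 11.19 against 12.42 (-1.24, SE 0.16, limma adjusted p = 0.00188). The list's median was -0.07, near the 0.04 of all tested probe sets. In limma 4 of the 9 had an unadjusted p under 0.05, beside 14.5% of all tested probe sets. Of these 4, Sult1a1 was higher in deficient livers. Among the 7 that did not pass, the P450 Cyp2c11 was at -0.30, -0.53 and -0.73 by its 3 probe sets. Sult1a1 was at 0.43, Cyp3a18 at 0.36, Cyp2a2 at -0.09, Cyp3a2 at -0.07, Hsd11b1 at 0.03 and Hsd3b5 at 0.0010. Of 14 tested genes of hormone signalling and liver transcription, Ghr, the growth hormone receptor, fell (-1.21, SE 0.19, limma adjusted p = 0.00798), and 13 did not pass. Its other probe sets, at -0.69 and -0.50, did not pass. The differences of 9 of the 14 were negative, with a median of -0.13, and 3 of the 14 had an unadjusted p under 0.05 in limma. Among those that did not pass, Igfals, which stabilises IGF1 in plasma, was at -0.72, -0.67 and -0.59 by its 3 probe sets, and Igf1 itself lay between -0.76 and -0.18 by its 5. The transcription factor Hnf4a was at 0.33, Stat5b, which carries the growth hormone signal to the nucleus, at 0.08, and the glucocorticoid receptor Nr3c1 at -0.02. Of 7 tested genes higher in female liver, 2 rose, 1 fell and 4 did not pass. By the brightest probe set of each gene, this list's median was 0.83, and all its differences but that of Cyp2c7 were positive. Of its dimmer tested probe sets, rc_AA945589_at of Sult2a2 was at -0.33 and the others were positive. In limma 6 of the 7 had an unadjusted p under 0.05, beside 14.5% of all tested probe sets. The 4 that did not pass were Sult2a2 at 0.92, Sult2a1 at 0.83, Cyp2a1 at 0.54 and Prlr at 0.13. Cyp2c12 (1.38, limma adjusted p = 0.00325) and Sult2a6 (1.26, limma adjusted p = 0.000198) rose, and Cyp2c7 fell (-7.32, limma adjusted p = 3.31e-05). The deficient level of Cyp2c7, 4.80, lay under the filter level of 6.196, so it passed the filter only through its sufficient level of 12.11.

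**Figure D4:**
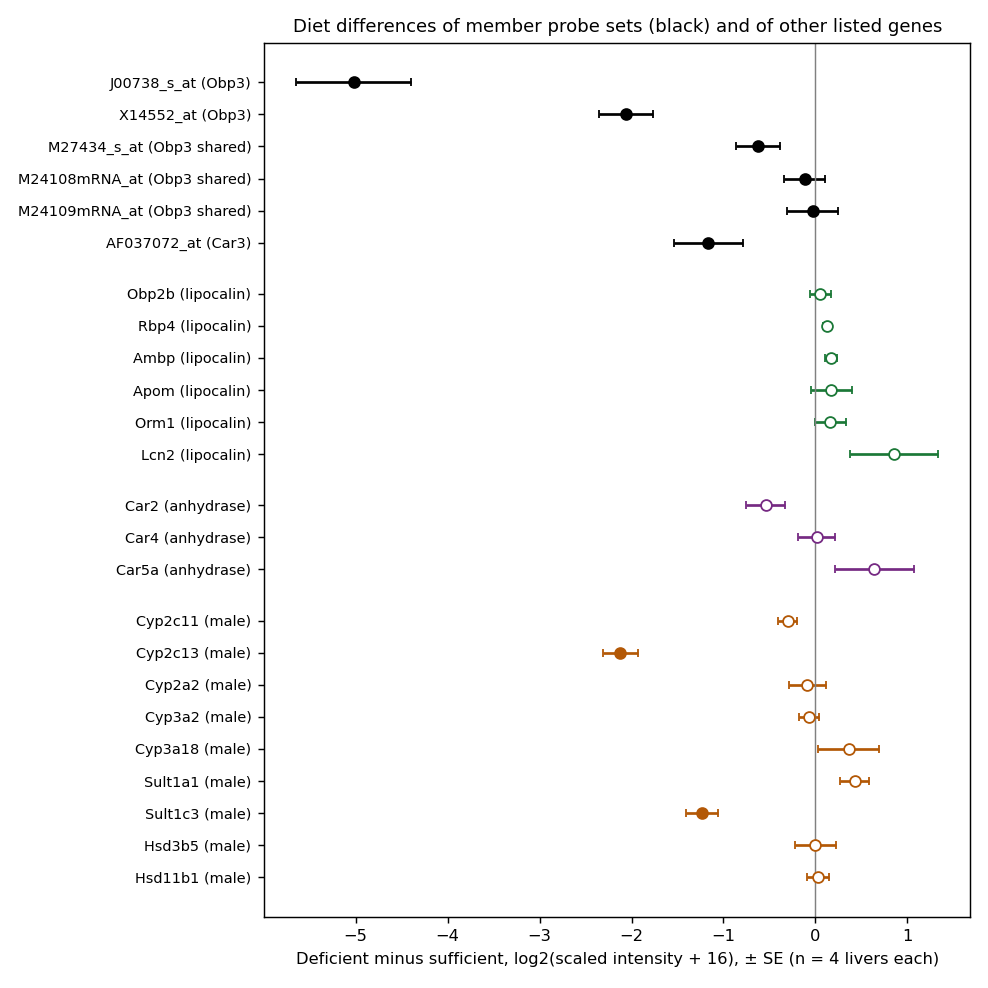
Difference between deficient and sufficient livers, on the log2 scale with SE from the liver SDs (n = 4 livers each). Shown are the 6 probe sets of Obp3 and Car3 (black, not tested), and other tested lipocalins (green), carbonic anhydrases (purple) and male-predominant genes (orange). Filled coloured points passed limma at an adjusted p of 0.05. J00738_s_at lies at -5.02, and Cyp2c13 and Sult1c3 are the only coloured points that passed.

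The genes whose profiles lay nearest were found by the root-mean-square distance between log2 levels over the 8 livers, each profile centred on its own mean. Nearest to J00738_s_at among 4326 compared probe sets were the stearoyl-CoA desaturase Scd (distance 1.27), the P450s Cyp2c22 (1.29), Cyp2c13 (1.36) and Cyp2c7 (1.56), and Cyp2b2 (1.79), where the median distance was 2.66. In Scd, deficient liver 4 was lowest too, at 7.16, but deficient liver 3, at 7.87, was below livers 1 and 2, at 8.71 and 8.51. Nearest to Car3 were Sult1c3 (distance 0.30), Cyp3a9 (0.38), Pip5k1c (0.38), Rab38 (0.39) and Oat (0.40), where the median distance was 0.79. Sult1c3 and Cyp3a9 were, like Car3, highest in deficient liver 3 among the deficient livers, at 11.48 and 8.12, and lowest in sufficient liver 4 among the sufficient livers, at 12.01 and 7.57. Nearest to M27434_s_at were Shank2 (0.18), Maf (0.20), Slc4a1 (0.22), Hyou1 (0.22) and Aqp5 (0.22), where the median distance was 0.51. The nearest probe sets of Cyp2c13 (J02861mRNA_s_at, at -2.60) and Slc4a1 (rc_AA866414_at, at -0.56) were not the brightest of those genes, which the lists use. The genes were picked for this likeness, so their values are a description.

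The tissue label fits the markers of hepatocytes, since all 7 on the array were bright enough to be tested and 0 passed by diet in limma (1 with an unadjusted p under 0.05), at differences of 0.03 to 0.63. Some markers of other cells did move with the diet, set beside the 0.992% of all probe sets that fell and the 0.725% that rose. Of 5 tested erythroid markers 4 fell, and their summed intensity was 7258.6 to 13356.3 in deficient arrays against 23185.6 to 31413.9 in sufficient arrays. Of 3 tested endothelial markers 1 fell, Lyve1 (-1.04), while Pecam1 was at 0.22 and Kdr at -0.02. Vwf, too dim to be tested, was at 0.36. The sum over these 4 was 793.3 to 1088.2 in deficient arrays against 1135.3 to 1533.1 in sufficient arrays. Of 5 tested stellate cell markers 1 rose, the filament protein Vim (0.80, limma adjusted p = 0.0357), and the sums of all 6 overlapped. Col1a1 was lower without overlap by its brightest probe set but did not pass (-0.85, limma adjusted p = 0.121). Col1a2 was at -0.31, Acta2 at -0.08 and Col3a1 at 0.03. In limma 0 of 4 tested fat markers, 0 of 4 pancreas markers and 0 of 2 macrophage markers passed, all with an unadjusted p of 0.05 or more. In bulk RNA, fewer cells of a type and less RNA per cell cannot be told apart. The part of these markers in the Obp3 and Car3 differences was not tested.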

How the data were processed

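The authors deposited 1 table with the intensity of each probe set on each of 14 arrays, on a linear scale. Which program summarised the probes, and how, is not given in the sources used here. All 14 columns were mapped by sample.

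The 59 control probe sets were left out, arrays were brought to a common trimmed mean of 500 (2% off each end), and log2 of the value plus 16 was taken. Probe sets under the 40th percentile of mean level (6.196) were left out, leaving 5244 of 8740. For the diet comparison the mean shift between RNA amounts was removed and arrays of 1 diet and number were averaged. Fits used limma 3.58.1 (R 4.3.3), two-sided, with a trend and Benjamini-Hochberg adjustment, and were tested on simulated data. Standard errors of list genes are limma's, and those of Obp3 and Car3 come from the liver SDs. The 2 amounts were taken as paired because same-numbered arrays of a diet deviated together (r = 0.202 to 0.351 in 6 pairs). Numbers did not pair livers across diets (r = -0.076 to 0.067). The labels do not say that livers are separate animals, so p-values reflect only spread between these values, which may be technical. The number of arrays limits the precision.

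A gene is represented by its brightest probe set. The genes named are Obp3 and Car3, up to 4 members of each list that passed, any tested lipocalin or carbonic anhydrase, and the 5 nearest profiles. Genes of the sex-predominant, regulator and marker lists that did not pass were named after their values were seen. So were the further Ghr and Sult2a2 probe sets, and Scd, Sult1c3 and Cyp3a9 by liver. The brightest Obp3 probe set is shared, so likeness was also computed for the brightest annotated to Obp3 alone. The members and lists were chosen with earlier results of these data known. Promoters were aligned globally with Biopython 1.88, ends free. Alternatives were another scaling, added constant, filter or trend setting, each RNA amount alone, no removal of the shift, blocks, and leaving out livers.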

Additional observations from a re-analysis of the deposited data

How the results depend on the processing

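The diet differences of J00738_s_at, X14552_at, M27434_s_at and Car3 stayed negative under every alternative run. With 1 liver left out they lay between -5.52 and -4.56, -2.26 and -1.91, -0.74 and -0.41, and -1.42 and -0.96. The difference of X14552_at was -2.55 with an added constant of 1 and -1.38 with 64, since its deficient readings were dim. That of M24108mRNA_at was 0.37 in the 10 µg arrays and -1.02 in the 2 µg arrays, and that of M24109mRNA_at was -0.49 in the 2 µg arrays. Neither of these carried a readable difference.

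The count of probe sets called by diet was 90. It was 33 in the 2 µg arrays alone, which are fewer, 250 with the 14 arrays fitted together and a random block, and 78 with the number across diets as a replicate block. It lay between 48 (without deficient liver 4) and 94 with 1 liver left out, and was 59 without sufficient liver 3. The cause of these moves was not tested. The count for RNA amount was 2 with the replicate block of diet and number, and 0 to 2 with 1 liver left out (2 without sufficient liver 1, 1 without sufficient liver 3). No amount or interaction effect of Obp3 or Car3 passed in any fit, and some changed sign near 0. With the replicate block the amount effect was 0.070 for J00738_s_at and 0.017 for M27434_s_at, and the interaction was 0.12 for J00738_s_at. The amount effect of M27434_s_at was 0.018 with a common median. With 1 liver left out the amount effects lay between -0.20 and 0.14 for J00738_s_at and -0.067 and 0.058 for M27434_s_at, and the interaction between -0.41 and 0.0023 for Car3. A background correction and a slide block were not run, since the table holds summarised intensities and gives no slide. Dim intensities limit what X14552_at, M24108mRNA_at, M24109mRNA_at and the J00738_s_at readings of deficient liver 4 can show.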
